A study of Mus musculus with 2 samples.

Results

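The 10 genes described here are a set of megakaryocyte and platelet genes: Pf4, Ppbp, Itga2b, Treml1, Gp1bb, Gp5, Gp9, F2r, Plek and Vwf. The genes were selected on their UMI counts by cell type in earlier results of these same libraries, so their levels are given as a description. All 10 were found among the 22652 genes counted in single cells of mouse fetal bone marrow. The 2 libraries were made on the BD Rhapsody whole transcriptome platform from lineage-depleted femoral marrow of C57BL/6 embryos at E18.5, 1 from wild type (WT) embryos and 1 from Bmx-CreER Wls embryos. In the latter, a tamoxifen-inducible Cre recombinase under the Bmx promoter, which is active in arterial endothelium, deletes floxed Wls, the gene for the Wntless protein that cells need to secrete Wnt ligands. Both libraries had been depleted of cells that bound antibodies to Ter119, Gr-1, B220 and CD3e, and none of these is an antigen that defines megakaryocytes. The number of embryos behind each library and the tamoxifen treatment of the WT embryos were not given in the sources used here. With 1 library for each genotype, genotype and library cannot be told apart, no test between them was possible, and every interval below is a 95% interval that covers counting error only.

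Megakaryocytes are the large marrow cells that shed platelets. On platelets, the integrin αIIbβ3, whose αIIb chain is encoded by Itga2b, binds fibrinogen, while the glycoprotein Ib-IX-V complex, with subunits encoded by Gp1bb, Gp5 and Gp9, binds von Willebrand factor, the product of Vwf. F2r encodes the thrombin receptor PAR1 and Plek the protein kinase C substrate pleckstrin, which many blood cells share. Treml1 encodes a receptor of platelet alpha granules, and Pf4 and Ppbp encode chemokines stored in those granules. Vwf is made by endothelial cells (ECs) as well as megakaryocytes. The thrombin receptor has a species difference, since platelets of the mouse respond to thrombin through PAR3 and PAR4 and not through PAR1.

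Pf4 and Ppbp are neighbours on chromosome 5, with 2371 bases between the end of Ppbp and the start of Pf4. The RefSeq promoter table (GRCm38.p6) held 9 of the 10 genes, and Vwf was not matched. The 150 bases before the start are shown for both chemokine genes, because Pf4 and not Ppbp was detected in macrophage-like cells, and for the integrin and Ib-IX-V genes. Capitals mark 6-base matches, on either strand, to an ETS-type motif (AGGAAG or CGGAAG) or a GATA-type motif (AGATAA or TGATAA), 2 motif families known from megakaryocyte promoters.
Pf4: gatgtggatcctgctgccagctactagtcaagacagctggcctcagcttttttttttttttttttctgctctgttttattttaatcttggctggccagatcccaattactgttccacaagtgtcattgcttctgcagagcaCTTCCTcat
Ppbp: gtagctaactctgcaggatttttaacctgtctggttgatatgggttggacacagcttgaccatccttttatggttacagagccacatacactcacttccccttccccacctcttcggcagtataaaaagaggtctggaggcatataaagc
Itga2b: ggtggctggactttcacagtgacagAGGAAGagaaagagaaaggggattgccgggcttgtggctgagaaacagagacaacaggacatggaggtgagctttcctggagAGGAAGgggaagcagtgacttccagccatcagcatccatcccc
Gp1bb: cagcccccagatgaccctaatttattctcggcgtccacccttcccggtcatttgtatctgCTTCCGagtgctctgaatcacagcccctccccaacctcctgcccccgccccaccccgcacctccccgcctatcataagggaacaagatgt
Gp5: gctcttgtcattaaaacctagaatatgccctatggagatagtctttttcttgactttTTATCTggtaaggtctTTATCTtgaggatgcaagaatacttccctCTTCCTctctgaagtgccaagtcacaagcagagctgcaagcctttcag
Gp9: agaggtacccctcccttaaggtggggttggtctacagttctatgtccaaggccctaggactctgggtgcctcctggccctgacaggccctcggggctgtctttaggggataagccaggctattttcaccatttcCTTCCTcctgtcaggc
These windows lie at chr5:90772285-90772434, plus strand (Pf4), chr5:90768368-90768517, plus strand (Ppbp), chr11:102469884-102470033, minus strand (Itga2b), chr16:18622404-18622553, minus strand (Gp1bb), chr16:30310782-30310931, minus strand (Gp5) and chr6:87777920-87778069, plus strand (Gp9). The ETS-type letters were present in 5 of the 9 windows, those of Pf4, Itga2b, Gp1bb, Gp5 and Gp9, and in 28.0% of the 27025 promoters in the table. The GATA-type letters were present in 1 of the 9, that of Gp5 with 2 matches, and in 9.91% of all promoters. The Ppbp, Treml1, F2r and Plek windows held neither.

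The libraries held 5998 barcodes (WT) and 6825 barcodes (Bmx-CreER Wls), of which 5736 and 6620 passed the filter on genes and mitochondrial counts, with medians of 3128 and 3067 unique molecular identifiers (UMIs). The tables shared 49 barcodes. The barcodes that were filtered out included none with 5 or more of the 10 genes. Levels are given as UMIs per 1000000 UMIs of the same cells (CPM), and since they are not corrected for gene length they are compared between cells and not between genes. Cell types in WT came from the study's own cell lists, which named 545 haematopoietic stem and progenitor cells (HSPCs) and the first part of the endothelial list, 435 cells. The study's methods name only cell cycle genes as left out of its clustering, so the 10 genes may have helped to define these listed types. For both libraries, a joint clustering without the 10 genes gave groups that are called "X-like" after their markers. In the endothelial-like cells Wls itself was measured at 84 UMIs in WT and 42 in Bmx-CreER Wls (41.8 and 23.0 CPM, ratio 0.550, 0.371 to 0.806). In those nearest to the arterial ECs of the list it was measured at 19 and 3 UMIs (ratio 0.150, 0.0285 to 0.51). In sinusoidal-nearest cells Wls stood at 28 and 11 UMIs (0.497, 0.224 to 1.03). The ratio was 0.674 in capillary-1-nearest, 1.27 in capillary-2-nearest and 0.749 in capillary-3-nearest cells, each with an interval that included 1. Multipotent-like cells held 79 and 32 Wls UMIs (0.682, 0.438 to 1.04).

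In the WT cells listed as megakaryocyte progenitors, the 10 genes together made up 327 UMIs in 89 cells, 676 CPM (605 to 754). The same sum was 218 CPM in multipotent HSPCs, 205 CPM in myeloid progenitors and 307 CPM (278 to 337) in ECs. Among the 4 HSPC subsets, 9 of the 10 genes had their highest level in megakaryocyte progenitors, and Pf4 was the exception. For Ppbp and Vwf this rests on 1 and 4 UMIs there, against 0 and 1 in multipotent HSPCs, with intervals that overlapped. Over all 9913 genes with 20 or more UMIs in these subsets, 33.3% were highest in megakaryocyte progenitors, and 6 of the 10 genes had that many UMIs, of which 5 were highest there. The label held up only in part on other genes. Of the 10 megakaryocyte markers measured, 8 were detected in these cells with 342 UMIs (707 CPM, against 207 in multipotent HSPCs, 261 in myeloid progenitors and 401 in neutrophil progenitors). Itgb3 alone made up 363 CPM in neutrophil progenitors. The number detected was 9 in multipotent HSPCs and 8 in myeloid progenitors. The summed multipotent markers stood at 1179 CPM in megakaryocyte progenitors and 1434 CPM in multipotent HSPCs. The megakaryocyte list was not specific to megakaryocyte progenitors, since its sum was 2289 CPM in ECs, which share Sdpr, Gng11 and Mmrn1. In the megakaryocyte progenitors Tubb1 and Clec1b, genes of the platelet tubulin cytoskeleton and of a platelet receptor, were at 0. Neither zero sets these cells apart. Tubb1 was also at 0 in the other HSPC subsets, ECs and chondrocytes, and in the megakaryocyte-like cells of both libraries. Clec1b was at most 2.87 CPM in those other listed classes.

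**Figure D1:**
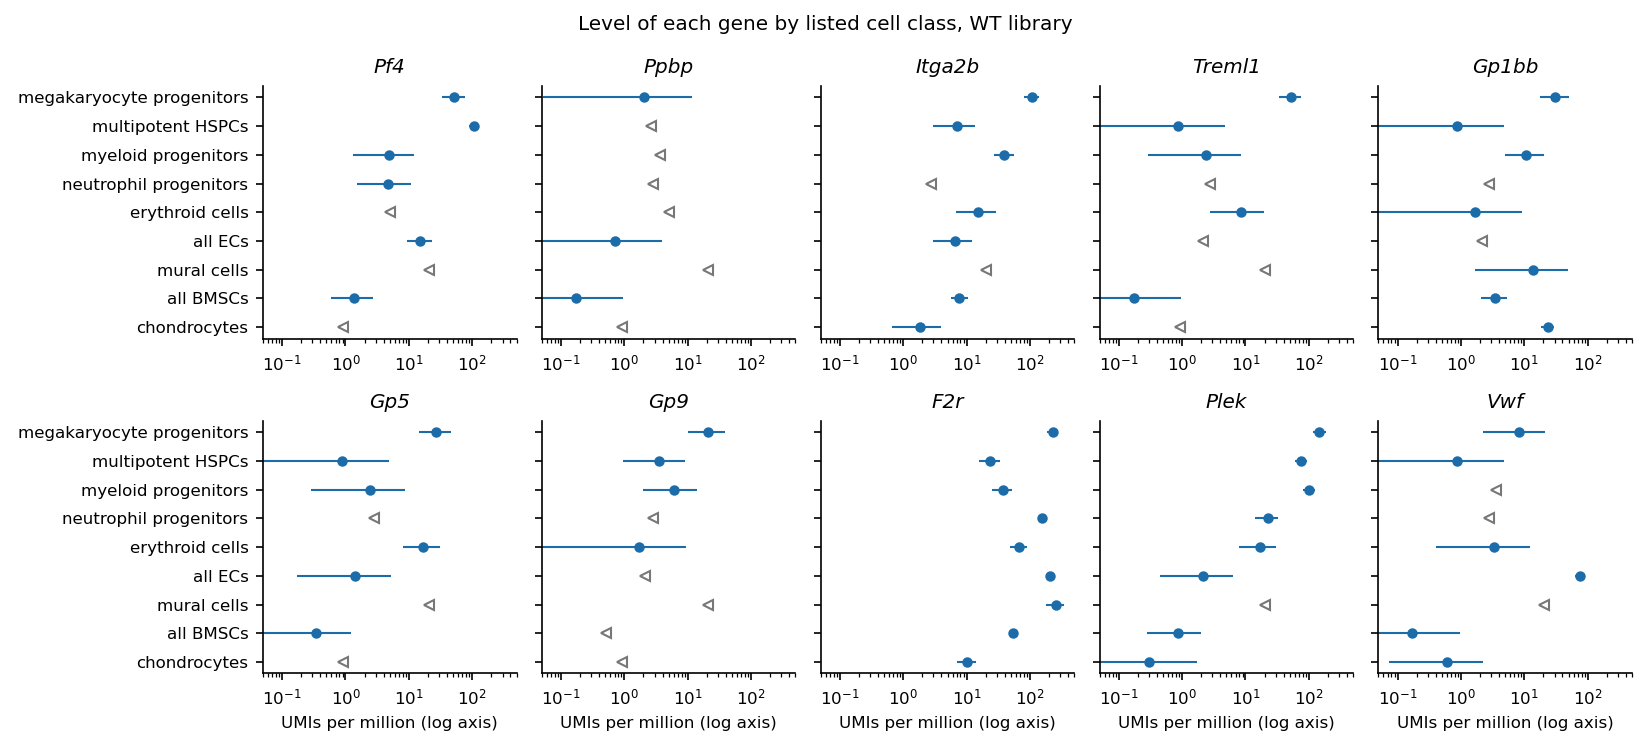
Level of each of the 10 genes (UMIs per 1000000, log axis) in the listed WT cell classes, 1 panel for each gene, with 95% Poisson intervals of the count. Open triangles mark classes with 0 UMIs, at the level of 3 counts. Among the 4 HSPC subsets 9 genes are highest in megakaryocyte progenitors, of which Ppbp rests on 1 UMI there and Vwf on 4. Pf4 is higher in multipotent HSPCs (106 CPM), and Vwf is higher in ECs (76.0 CPM).

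Itga2b was measured in megakaryocyte progenitors at 52 UMIs in 30 of 89 cells, a level of 108 CPM (80.3 to 141). Myeloid progenitors followed with 33 UMIs in 28 of 144 cells (39.5 CPM), a level 2.72-fold (1.73 to 4.35) below that of megakaryocyte progenitors. Multipotent HSPCs had 8 UMIs in 173 cells, and the 139 neutrophil progenitors had none. Among the clusters, basophil-mast-like cells carried Itga2b in both libraries, with 16 UMIs in 15 of 62 WT cells and 13 UMIs in 12 of 48 Bmx-CreER Wls cells. The listed bone marrow stromal cells (BMSCs) held single UMIs of it, 45 UMIs in 45 of 1649 cells. The 953 listed chondrocytes, which should lack the gene, had 6 UMIs at a median of 2765 UMIs for each cell, against 5608 in megakaryocyte progenitors.

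The subunits of the Ib-IX-V complex had different ranges. Gp9 was measured almost only in progenitors, with 10 UMIs in 9 of 89 megakaryocyte progenitors (20.7 CPM, 9.92 to 38.0), 5 UMIs in myeloid progenitors, 4 in multipotent HSPCs and none in neutrophil progenitors, ECs or chondrocytes. Its level in megakaryocyte progenitors was 3.46-fold (1.08 to 12.9) above that in myeloid progenitors. Gp5 was measured at 13 UMIs in 13 of 89 megakaryocyte progenitors (26.9 CPM). The 65 listed erythroid cells came next with 10 UMIs (16.7 CPM), and the ratio between them, 1.61 (0.650 to 4.09), did not separate these neighbours. In the erythroid-like clusters Gp5 was detected at 26 UMIs in 20 of 86 WT cells and 7 UMIs in 7 of 35 Bmx-CreER Wls cells, and Pf4 at 0 UMIs in both.

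Gp1bb is read with its neighbour Sept5 (Septin5), which lies on the same strand of chromosome 16 and overlaps it, from 18620502 to 18629954 against 18620317 to 18622403 for Gp1bb (GRCm38). Reads could be shared between these genes, depending on how the counting treated the overlap. Megakaryocyte progenitors held 15 Gp1bb UMIs in 12 of 89 cells (31.0 CPM, 17.4 to 51.2), whereas chondrocytes held 77 UMIs in 69 of 953 cells (23.6 CPM). The ratio of these levels was 1.31 (0.702 to 2.31). The cell types differed in the neighbour, since chondrocytes held 39 Sept5 UMIs beside the 77 of Gp1bb, and the 4 HSPC subsets held 0 beside 25. In megakaryocyte-like cells Sept5 was at 0 in both libraries.

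Treml1 was close to absent outside megakaryocyte progenitors in the listed cells. It was measured at 25 UMIs in 16 of 89 cells (51.7 CPM), 6.18-fold (2.32 to 20.7) above the 5 UMIs of the listed erythroid cells, with 1 UMI in multipotent HSPCs, 2 in myeloid progenitors and 0 in neutrophil progenitors, ECs and chondrocytes.

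F2r and Plek were spread over more cell types. F2r was measured at 111 UMIs in 54 of 89 megakaryocyte progenitors (229.6 CPM, 189 to 276). Listed mural cells, the pericytes and smooth muscle cells of vessels, had 254 CPM and ECs 205 CPM. The ratios of these neighbours were 1.10 (0.740 to 1.61) for mural cells over megakaryocyte progenitors and 1.12 (0.891 to 1.40) for megakaryocyte progenitors over ECs, so their order was not resolved. The cells listed as neutrophil progenitors had 168 F2r UMIs (156 CPM), and 88 of these 139 cells fell in clusters named osteoclast-like, where F2r was at 192 CPM in WT and 182 CPM in Bmx-CreER Wls. The same listed cells held 390 UMIs of Itgb3 (363 CPM), which encodes the integrin β3 chain that partners both αIIb and the αV chain of osteoclasts, and 0 UMIs of Itga2b. Plek was measured at 147 CPM (115 to 185) in megakaryocyte progenitors, 102 CPM in myeloid progenitors and 74.7 CPM in multipotent HSPCs. The first of these levels was 1.44-fold (1.04 to 2.001) above the second, and the second was not separated from the third (1.36, 0.998 to 1.86). ECs held 3 Plek UMIs in 435 cells. Plek overlaps Cnrip1 and Gm12014 on the opposite strand, and whether the counting used strand was not given in the sources used here.

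Pf4 was the gene whose highest listed HSPC subset was not the megakaryocyte progenitors. Multipotent HSPCs held 122 Pf4 UMIs (106 CPM, 88.0 to 126) and megakaryocyte progenitors 25 (51.7 CPM, 33.5 to 76.3), a ratio of 2.05 (1.32 to 3.29). The UMIs of the multipotent HSPCs were concentrated in few cells. Of the 173 cells, 12 fell in the macrophage-like cluster, and these held 120 of the 122 Pf4 UMIs in 11 cells. The other 161 held 2 Pf4 UMIs. Apart from 6 Plek UMIs, the 12 cells had none of the other genes.

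The macrophage-like cluster carried all 7 markers of the macrophage list in both libraries, with 641 UMIs of them in 13 WT cells and 655 in 15 Bmx-CreER Wls cells, whereas it held 0 and 1 UMIs of the megakaryocyte markers. Pf4 was measured there at 121 UMIs in 12 of 13 WT cells (2177 CPM, 1806 to 2601) and at 113 UMIs in 11 of 15 Bmx-CreER Wls cells (2101 CPM, 1732 to 2526). The ratio of the libraries was 0.966 (0.740 to 1.26). A few cells dominated, with 45 and 44 UMIs in the top cell and medians of 3 and 4. Ppbp, Itga2b, Treml1, Gp1bb, Gp5, Gp9 and Vwf were at 0 in both libraries, where 3 counts would have been 54.0 and 55.8 CPM, and F2r was at 0 and 2 UMIs. Of the 13 WT cells, 11 were among the 5% of cells with the highest doublet scores, against 2 of 15 in Bmx-CreER Wls, and without such cells the WT level was 772 CPM in 2 cells. The part of doublets in these Pf4 levels was not tested. Over all cells, the macrophage-like cells held 61.1% of the 198 Pf4 UMIs in WT and 28.0% of the 403 in Bmx-CreER Wls, and the megakaryocyte-like cells 12.1% and 39.7%.

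**Figure D2:**
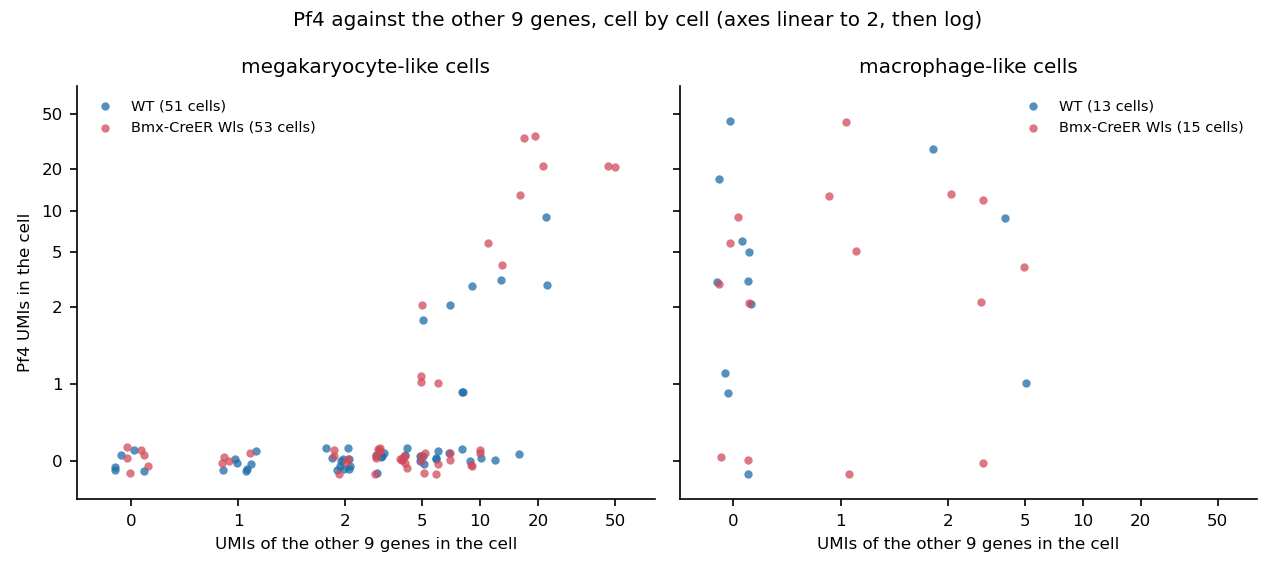
Pf4 UMIs (vertical axis) against the UMIs of the other 9 genes (horizontal axis) in each megakaryocyte-like and macrophage-like cell of WT (blue) and Bmx-CreER Wls (red), 1 jittered point for each cell, with axes linear to 2 and then log. Megakaryocyte-like cells with Pf4 also hold UMIs of the other genes, whereas macrophage-like cells hold up to 45 Pf4 UMIs beside few or none of them.

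Ppbp, the chemokine gene beside Pf4, was rare, with 3 UMIs in 3 WT cells and 23 UMIs in 4 Bmx-CreER Wls cells. Each of these 7 cells also held Pf4. Ppbp was at 0 in macrophage-like cells, beside 121 and 113 UMIs of Pf4. In megakaryocyte-like cells it was at 1 UMI beside 24 of Pf4 in WT, and at 10 beside 160 in Bmx-CreER Wls. Cells without F2r held 1 of the 3 Ppbp UMIs in WT and 20 of the 23 in Bmx-CreER Wls. One of the latter, picked out after its values were seen, was a barcode with 1820 UMIs from 564 genes and 23.6% mitochondrial UMIs, in which 71 UMIs (3.90% of all its UMIs) came from 8 of the 10 genes, including 21 of Pf4, 10 of Ppbp, 9 of Treml1 and 0 of F2r. It was also among the cells with the highest doublet scores.

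Vwf was an endothelial gene in these cells. The listed ECs held 106 UMIs in 52 of 435 cells (76.0 CPM, 62.2 to 91.9), 9.18-fold (3.48 to 34.3) above megakaryocyte progenitors, which held 4 UMIs in 4 of 89 cells (8.27 CPM, 2.25 to 21.2). The 953 chondrocytes held 2. In the clusters, endothelial-like cells held 92.2% of all Vwf UMIs in WT and 92.4% in Bmx-CreER Wls. Within the listed ECs the level was 473 CPM (365 to 602) in capillary-2 ECs, with 25 of 47 cells positive, 121 CPM (75.7 to 183) in arterial ECs, 38.9 CPM in sinusoidal, 16.2 CPM in capillary-1 and 9.61 CPM in capillary-3 ECs. The intervals of capillary-2 and arterial ECs lay apart from each other, and those of the 3 lowest subsets overlapped. F2r showed no such order, with 138 CPM in capillary-2 ECs and from 187 CPM (arterial) to 225.5 CPM (sinusoidal) in the others.

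Pf4 was also detected in ECs, at 21 UMIs in the listed cells (15.1 CPM) and 25 and 14 UMIs in the endothelial-like cells of WT and Bmx-CreER Wls. It was seldom in the same cell as Vwf, with 1 cell in each library, where the product of the separate shares would give 2.48 and 2.86 cells. The 953 listed chondrocytes had 0 Pf4 UMIs, which allows a share of up to 0.315% of cells with a UMI (3 counts of the total) and sets no limit on cells that express the gene below this depth. Gp1bb, Gp9 and Treml1 were at 0 in the listed ECs.

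**Figure D3:**
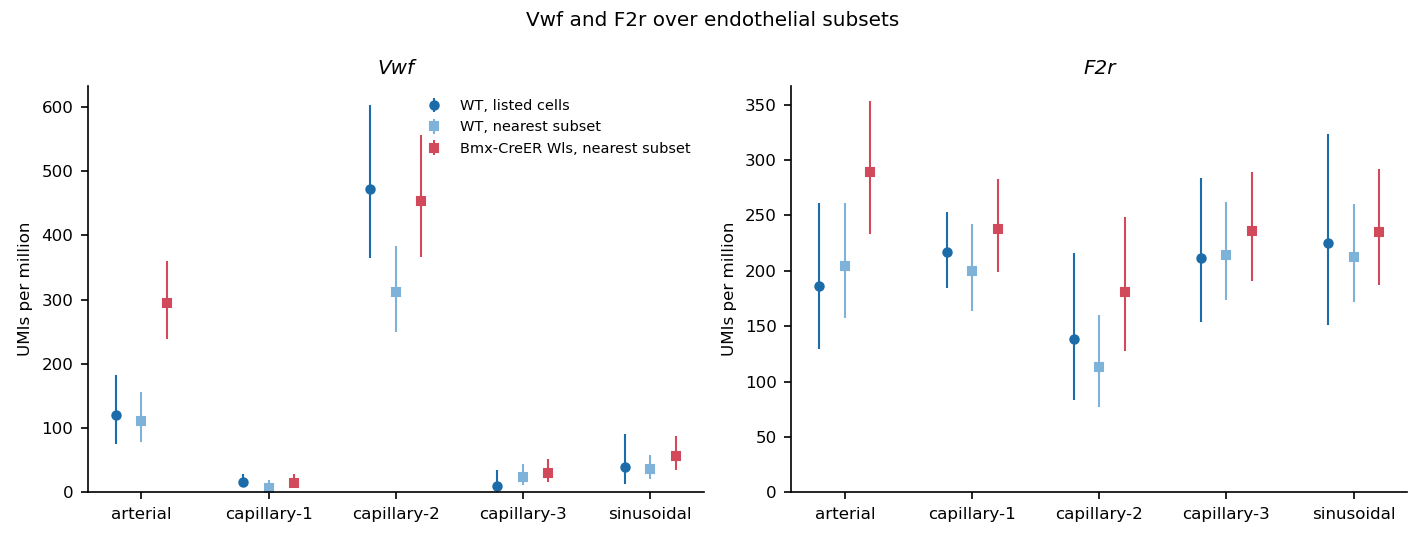
Vwf and F2r levels (UMIs per 1000000, linear axes, 95% Poisson intervals) in 5 endothelial subsets, for the listed WT cells (circles) and for the endothelial-like cells of WT and Bmx-CreER Wls placed by their nearest listed subset (squares). Vwf is highest in capillary-2 ECs in all 3 sets, and in arterial-nearest cells it is 112 CPM in WT and 295 CPM in Bmx-CreER Wls.

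Single cells with several of the 10 genes were few. Of the 89 listed megakaryocyte progenitors, 74 held at least 1 of them, 29 at least 3 (32.6%, 23.0 to 43.3) and 8 at least 5 (8.99%, 3.96 to 17.0). Listed chondrocytes had 103 of 953 cells with at least 1 and none with 3, at a median depth of 2765 UMIs against 5608 in megakaryocyte progenitors. No other listed HSPC subset had a cell with 5, and 2 multipotent and 2 myeloid cells had 3 or more. At least 1 gene was held by 86 of 173 multipotent HSPCs, 82 of 144 myeloid progenitors and 80 of 139 neutrophil progenitors. These shares moved with depth, and after thinning to 1000 UMIs 5.75% of 87 megakaryocyte progenitors had 3 or more and none had 5, while 36.8% had at least 1, against 4.07% of chondrocytes. The listed megakaryocyte progenitors also differed among themselves. Those in megakaryocyte-like clusters, 34 cells, held 232 of the 327 UMIs, and 20 of them had 3 or more genes and 7 had 5 or more. The 47 in multipotent-like clusters held 73 UMIs, with 5 cells at 3 or more genes and none at 5. Pf4 followed this split with 24 and 1 UMIs, as did Itga2b with 41 and 7, whereas Gp9 had 4 and 5.

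**Figure D4:**
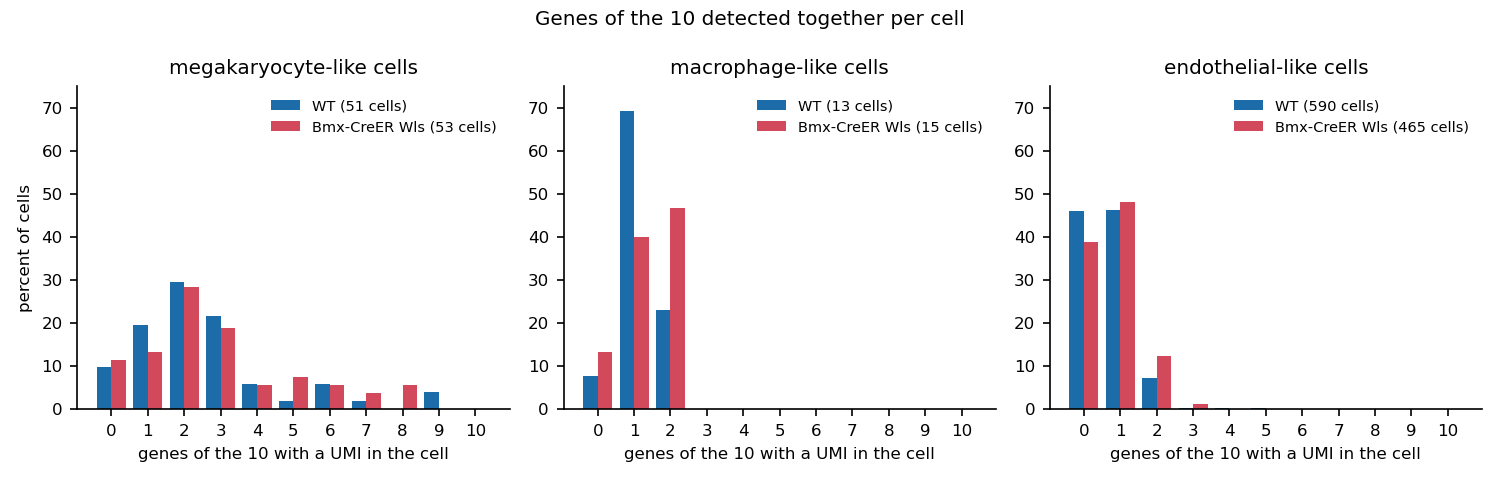
Percent of cells (vertical axis) against the number of the 10 genes with a UMI in the cell (horizontal axis), in megakaryocyte-like, macrophage-like and endothelial-like cells of WT (blue) and Bmx-CreER Wls (red). Megakaryocyte-like cells reach 9 genes in WT and 8 in Bmx-CreER Wls, while macrophage-like cells stop at 2.

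Across both libraries, 10 WT cells (0.174%) and 18 Bmx-CreER Wls cells (0.272%) held 5 or more of the 10 genes. The megakaryocyte-like clusters held 7 and 12 of these. The others lay in stromal, cartilage, endothelial or multipotent clusters or in an unnamed cluster led by Col2a1, and 2 of these 3 in WT and 3 of these 6 in Bmx-CreER Wls were among the 5% with the highest doublet scores. Such cells carried 33 of the 198 Pf4 UMIs in WT and 257 of the 403 in Bmx-CreER Wls. One BMSC-like cell of Bmx-CreER Wls, picked out after its values were seen, held 9 of the 10 genes with 28 UMIs of Pf4 and 8 of Ppbp.

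Some pairs of genes were found together in more cells than the product of their separate shares gives, in cells that also differ in depth. In megakaryocyte-like cells, 7 of the 8 WT cells with Pf4 also held Itga2b, where the product of shares gives 3.92, and all 8 held F2r. In Bmx-CreER Wls 11 of the 12 Pf4 cells held Itga2b (6.34 by the product) and 10 held F2r. Treml1 and Gp5 shared 6 WT cells (1.73 by the product) and 3 Bmx-CreER Wls cells (2.04). The 4 Bmx-CreER Wls megakaryocyte-like cells with Vwf all held Pf4, against 2 of 3 in WT.

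The libraries are compared as a description, which cannot tell loss of Wls in arterial ECs from other differences between the libraries. The megakaryocyte-like clusters held 51 WT cells (0.889% of the cells kept) and 53 Bmx-CreER Wls cells (0.801%), with median depths of 5608 and 7181 UMIs. Of the 10 markers, 7 were detected there in WT and 9 in Bmx-CreER Wls, with summed levels of 583 and 799 CPM, and the macrophage markers were at 0 in both. Multipotent-like cells held 8 of the 10 markers in each library, at 469 and 538 CPM, and endothelial-like cells stood at 2168 and 2553 CPM. Where a name needed 3 markers more than 2-fold above all haematopoietic cells, 4 of the 10 passed in the megakaryocyte-like cells. Other lists also differed in these cells, with 245 and 395 CPM for neutrophil-monocyte progenitor markers, 69.0 and 107 for basophil-mast, 104 and 188 for chondrocyte, 148 and 210 for endothelial and 128 and 163 for erythroid markers, while multipotent markers stood at 514 and 474 and BMSC markers at 193 and 140. Their part in the values below was not tested. Wls was measured in these cells at 25 and 18 UMIs (ratio 0.585, 0.301 to 1.12). The 10 genes together stood at 270 UMIs (931 CPM) in WT and 521 UMIs (1460 CPM) in Bmx-CreER Wls, a ratio of 1.57 (1.35 to 1.82). Without Pf4 the other 9 gave 246 and 361 UMIs and a ratio of 1.19 (1.01 to 1.41), and 1.10 (0.926 to 1.31) without the top cell of each library. The ratio of these 9 was 1.46 (1.28 to 1.67) with cells classed by nearest centroid, 1.52 (1.25 to 1.85) with clustering at 1.5 times the resolution and 1.03 (0.872 to 1.23) under a stricter filter (at least 1000 UMIs and under 10% mitochondrial).

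Pf4 was measured at 24 UMIs in 8 of 51 WT cells (82.8 CPM, 53.1 to 123) and 160 UMIs in 12 of 53 Bmx-CreER Wls cells (448 CPM, 382 to 524), a ratio of 5.42 (3.51 to 8.70). It was the 1 gene at least 2-fold higher among the 7 of the 10 with 20 or more UMIs over both libraries, and none was at least 2-fold lower. Over all 5530 genes with that many UMIs in these cells, 3.16% were at least 2-fold higher and 2.59% at least 2-fold lower. The libraries differed mainly in cells of high count. No WT cell and 6 Bmx-CreER Wls cells held 10 or more Pf4 UMIs, the top cells held 9 and 35, and the top 5 cells held 83.3% and 82.5% of the Pf4 UMIs. The ratio was 7.36 without the top cell of each library and 5.25 without the cells of highest doublet score. With cells classed by nearest centroid it was 9.90 (6.56 to 15.5), at 1.5 times the resolution 6.69 (4.30 to 10.9), and under the stricter filter 4.70 (3.03 to 7.59). The spread between libraries of 1 genotype is unknown, and the part of the higher median depth in Bmx-CreER Wls was not tested.

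The other genes are given with fewer UMIs than Pf4 in Bmx-CreER Wls. Itga2b stood at 49 and 65 UMIs in WT and Bmx-CreER Wls (ratio 1.08, 0.732 to 1.595). Gp5 stood at 12 and 15 (1.02, 0.444 to 2.38) and Gp9 at 5 and 9 (1.46, 0.440 to 5.555). Gp1bb stood at 16 and 36 UMIs (1.83, 0.989 to 3.53) and Treml1 at 13 and 27 (1.69, 0.841 to 3.56). F2r, with 83 and 109 UMIs, and Plek, with 64 and 85, had ratios of 1.07 and 1.08. Vwf was at 3 and 5 UMIs, and Ppbp at 1 and 10, all 10 in 1 cell.

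**Figure D5:**
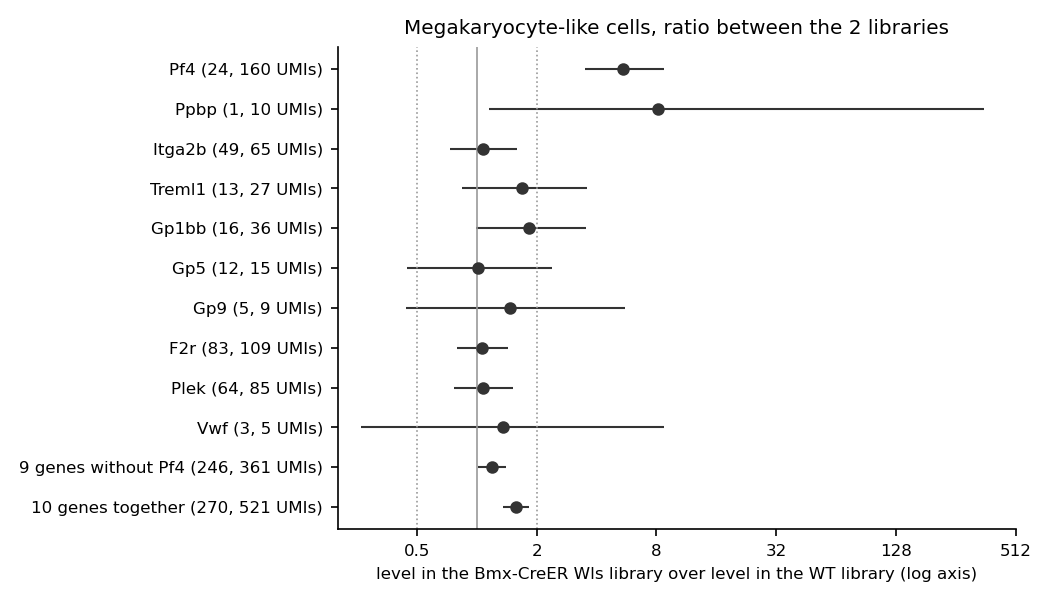
Ratio of the level in Bmx-CreER Wls to that in WT (log axis) in megakaryocyte-like cells, for each of the 10 genes, the 9 without Pf4 and all 10 together, with 95% conditional binomial intervals for counting error and dotted lines at 0.5 and 2. Pf4 stands at 5.42 with its interval above 2, and the 9 other genes together at 1.19.

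In macrophage-like cells, Pf4 and Plek had 20 or more UMIs and neither was past 2-fold, where 6.81% of 1130 genes were higher and 6.81% lower. In endothelial-like cells, Vwf was measured at 154 UMIs in 77 of 590 WT cells (76.6 CPM) and 230 UMIs in 95 of 465 Bmx-CreER Wls cells (126 CPM), a ratio of 1.64 (1.33 to 2.03), and F2r at 391 and 438 UMIs (1.23, 1.07 to 1.42). None of the 4 genes with 20 or more UMIs was past 2-fold, where 1.31% of 10074 genes were higher and 1.56% lower. In the arterial-nearest cells, the type in which Bmx-CreER is active, Vwf was at 35 UMIs (112 CPM) in WT and 97 UMIs (295 CPM) in Bmx-CreER Wls, a ratio of 2.64 (1.77 to 4.00), and F2r at 64 and 95 UMIs (1.41, 1.02 to 1.97). Vwf was the 1 of these 2 genes past 2-fold, beside 3.8% of 5188 genes higher and 2.89% lower. In cells nearest to capillary-2 ECs, Vwf was at 88 and 93 UMIs (1.46, 1.08 to 1.98). The Vwf ratio was 1.58 (0.779 to 3.27) in sinusoidal-nearest, 1.925 (0.516 to 8.74) in capillary-1-nearest and 1.23 (0.495 to 3.07) in capillary-3-nearest cells. Each of these intervals overlapped that of the arterial-nearest cells, so a Vwf difference particular to arterial cells was not resolved. The nearest subset matched the study's label in 313 of the 435 listed ECs.

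A wider list of platelet and megakaryocyte genes was read in the same HSPC subsets. Of 40 such genes in the tables, 27 had 20 or more UMIs over the 4 subsets, and 19 of these were highest in megakaryocyte progenitors (33.3% over all genes with that many UMIs), 1 in multipotent HSPCs, 4 in myeloid progenitors and 3 in neutrophil progenitors. Zfpm1, the cofactor FOG1 of GATA1, was at 248 CPM in megakaryocyte progenitors, 29.5 in multipotent HSPCs and 73.0 in myeloid progenitors, and Nrgn, neurogranin, at 583, 179 and 177 CPM in the same order. Angpt1, the ligand of the receptor Tie2, was at 339, 125 and 176 CPM. Mef2c, a transcription factor, was at 372, 207 and 86.2 CPM. Of the 173 listed multipotent HSPCs, 70 fell in multipotent-like clusters. In the WT clusters, Angpt1 was at 245 CPM in megakaryocyte-like and 292 CPM in multipotent-like cells, and Mef2c at 341.5 and 339 CPM. Zfpm1 (373 and 76.4 CPM) and Nrgn (600 and 406.5 CPM) were higher in megakaryocyte-like cells there too. Srgn, the granule proteoglycan serglycin, and Runx1, a transcription factor of blood development, were higher in myeloid progenitors, at 1929 and 342 CPM against 989 and 232 CPM in megakaryocyte progenitors. Fermt3, the integrin activator kindlin-3, was at 213 CPM and Rgs18, a regulator of G protein signalling, at 194 CPM in megakaryocyte progenitors. In the 89 cells, 6 genes of the list were at 0 UMIs, namely Tubb1, Clec1b, P2ry12 (the platelet ADP receptor), Alox12, Cd226 and Myl9.

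Between the libraries, 24 genes of the wider list had 20 or more UMIs in megakaryocyte-like cells, and their median ratio was 0.981. Of these, 2 were at least 2-fold higher in Bmx-CreER Wls and 0 lower, beside 3.16% higher and 2.59% lower over all 5530 genes. The 2 genes were Thbs1, thrombospondin-1, at 4 and 27 UMIs (ratio 5.48, 1.91 to 21.6) and Itgb3 at 15 and 38 UMIs (2.06, 1.11 to 4.03), both named after their values were seen. Thbs1 was not particular to megakaryocyte progenitors, with 18.6 CPM there, 57.6 CPM in neutrophil progenitors and 1185 CPM in chondrocytes of the WT lists. Gng11, at 0 and 19 UMIs, fell below the limit of 20.

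Genes outside the 10, with at least 100 UMIs, were ranked by how alike their level was to each of the 10. The ranking used 56 points (28 clusters in 2 libraries), and the nearest genes are given here for 9 of the 10. For Pf4 these were Stab1 (Pearson's r = 0.66) and Mrc1 (r = 0.62), scavenger receptor genes known from macrophages. Mrc1 was also on the marker list that named the macrophage-like cluster. For Gp5 the nearest was Mfsd2b (r = 0.89), a sphingosine-1-phosphate transporter of red cells and platelets, which was nearest to Treml1 as well (r = 0.76). For Plek the nearest was Coro1a (r = 0.93), an actin regulator of leukocytes, and for Vwf Gimap4 (r = 0.81). Itga2b was nearest to Rab37 (r = 0.84), F2r to Osbpl3 (r = 0.65), Gp1bb to Serpini1 (r = 0.72) and Ppbp to Ctla2a (r = 0.43). Within the 10, Ppbp was more like Gp9 (r = 0.56) than like Ctla2a. Among the 10 themselves, Treml1 and Gp5 were most alike (r = 0.81). The highest r with another of the 10 was 0.48 for Pf4 (Ppbp), 0.31 for Gp1bb (Treml1) and 0.28 for Vwf (Gp5). Points of 1 library share its depth, so these are descriptions over clusters.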

How the data were processed

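Lineage-depleted fetal femoral marrow was profiled as 1 WT and 1 Bmx-CreER Wls library. Per the labels, the authors demultiplexed with bcl2fastq 2.19.1.403, took UMIs with UMI-tools 1.0.1, aligned to mm10 with STAR 2.7.1a and counted genes with featureCounts 1.6.4, and deposited UMI counts per gene and barcode. The annotation and strand setting were not given in the sources used here. Barcodes were kept between 200 and 5000 detected genes, at a mitochondrial share below 30%. Listed cell types came from the study's cell lists, joined by barcode. Both libraries were clustered together (scanpy 1.11.5, Leiden resolution 0.5, haematopoietic clusters again at 1.0) without the 10 genes and cell cycle genes, and a name needed 3 markers. Doublets were scored with Scrublet and kept. Counts were summed over cells. Intervals are exact Poisson (levels), Clopper-Pearson (shares) or conditional binomial (ratios). A fixed limit of 2-fold at 20 or more UMIs stood in for a test. Scripts were tested on simulated data. The members and lists were chosen with earlier results of these data known. Nearest genes and the 10 wider-list genes of highest level in megakaryocyte progenitors were named by rule, of which 2 of the latter and the nearest gene of Gp9 are not reported here.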

Additional observations from a re-analysis of the deposited data

How the results depend on the processing

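No paired analysis was possible because each group was 1 library. The values for single genes in listed HSPC subsets kept to within their counting interval in 114 of 120 alternatives. Some of these values rest on 1 UMI, such as Ppbp in megakaryocyte progenitors, and so wide an interval is easily kept to. The 6 that moved included Pf4 in multipotent HSPCs, 106 CPM as reported and 6.66 CPM once the cells in the top 5% of doublet scores were left out, which takes out most of the macrophage-like cells. The 9 other results moved in 19 of 60 alternatives. The summed level in megakaryocyte progenitors was 931.5 CPM when the WT megakaryocyte-like clusters replaced the list. The Vwf level in listed ECs was 94.88 CPM as a mean over cells and 58.4 CPM with at least 1000 UMIs and under 10% mitochondrial. The share with 5 or more genes (8.99%) was 0 at 1000 and 0 at 500 UMIs, and 32.58% for 3 or more genes. Pf4 in WT macrophage-like cells was 772 CPM without the highest doublet scores, where its count over the limit of 3 Ppbp UMIs was 1.667 (40.3 as reported), and 1525 CPM (WT) and 1399.9 CPM (Bmx-CreER Wls) without the top cell. The ratio of the 10 genes between libraries was 1.964 with nearest-centroid classes, 2.119 at 1.5 times the resolution and 1.192 without Pf4. The share of megakaryocyte-like cells in WT and Bmx-CreER Wls was 3.312% and 2.039% by nearest centroid and 0.4707% and 0.3927% at 1.5 times the resolution. Genes past 2-fold numbered 4144 with at least 1 UMI and 8 with at least 100 UMIs, against 318. The cause was not tested for these, other than the construction of each alternative. Leaving out the top cell or Pf4 was chosen after seeing the data. Few UMIs (under 20 for Ppbp, Gp9 and Vwf in megakaryocyte-like cells) limit the rarest genes.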
